A study of Mus musculus with 8 samples.

Results

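The Polycomb complexes were examined through 10 of their subunit genes, Ezh1, Ezh2, Eed, Suz12, Jarid2, Bmi1, Rnf2, Cbx2, Cbx7 and Cbx8. These genes were taken by a list of names from the 24015 genes of the count table, and all 10 were among the 13908 genes with enough reads to be tested. The study sorted cells from the AGM (aorta-gonad-mesonephros region) and the vitelline and umbilical arteries of mouse embryos at E11.5, an embryonic stage at which hematopoietic stem cells form there. Hematopoietic cluster cells were Ter119- VE-Cadherin+ c-Kit+, and endothelial cells were Ter119- VE-Cadherin+ c-Kit- CD41- CD45-. Both populations came from wild type and from Sl/Sl embryos, which carry a deletion of the Steel locus on both chromosomes and so lack Kitl, the ligand of the Kit receptor. This gave 4 groups, clusters and endothelium of each genotype, with 2 libraries per group, and each library was made from 100 cells of embryos pooled by genotype. The Sl/Sl deletion is present in every cell of the embryo, so these libraries do not separate the loss of Kitl in endothelium from its loss in other tissues.

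Polycomb proteins keep developmental genes silent through modification of histones. Polycomb repressive complex 2 (PRC2) places methyl groups on lysine 27 of histone H3. Its catalytic subunit is either Ezh2, typical of dividing and embryonic cells, or Ezh1, typical of resting and differentiated cells, and it needs Eed, which reads the same mark, and Suz12, the scaffold. Jarid2 helps recruit PRC2 to DNA. PRC1 places ubiquitin on histone H2A through Rnf2 (also called Ring1b). In canonical PRC1, Rnf2 pairs with Bmi1 or a related ring finger protein and with 1 chromobox protein, such as Cbx2, Cbx7 or Cbx8, which binds the mark of PRC2. In blood, Bmi1 and Cbx7 are known for maintaining the self-renewal of stem cells, and Bmi1 for repression of the Cdkn2a locus.

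Library totals ranged from 8933236 to 13428214 counts, with 12844 to 14309 genes detected, and intervals and limits given below cover counting error only. The sort could be read in the libraries, though less sharply in some sort markers. The hematopoietic gene Ptprc (CD45) had 1294 to 3908 counts in the 4 cluster libraries and 6 to 16 in the 4 endothelial libraries. Kit had 2937 to 4392 counts in clusters, and still 538 to 1065 in the c-Kit- endothelium. Cdh5 (VE-Cadherin), positive in both sorts, had 4480 to 8240 counts in endothelium. In clusters it had 2531 and 154 counts for wild type, with 1817 and 659 for Sl/Sl. Kitl followed the genotypes in endothelium, with 1250 and 923 counts for wild type but only 6 and 2 for Sl/Sl, and was low in all clusters (110 and 0 for wild type, 1 and 3 for Sl/Sl). Some cluster libraries stood apart. The summed level of 8 mesenchymal genes was 4010 CPM (counts scaled by library total) in Sl/Sl clusters replicate 2 and 30.7 CPM in Sl/Sl clusters replicate 1, and was 84.9 to 1136 CPM in the other 6 libraries. Wild type clusters replicate 1 held 121 CPM of 8 germ cell genes, against 0.159 to 16.1 CPM elsewhere. Endothelial genes, which sum to 5054 CPM or more in every endothelial library, ranged from 214 CPM in wild type clusters replicate 2 to 2167 CPM in Sl/Sl clusters replicate 1. Macrophage genes summed to 76.4 to 234 CPM in clusters and to 0.505 to 13.2 CPM in endothelium. Some of these marker levels are given again beside a Polycomb gene, and their part in the results was not tested.

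The levels of the 10 genes, as counts scaled by exon length and library total (RPKM), fell into an abundant and a scarce set. Eed had the highest mean of the 10 in all 4 groups, from 66.2 ± 10.96 RPKM in wild type endothelium to 130 ± 28.5 RPKM in wild type clusters (SD, n = 2 libraries per group here and below). Ezh2 and Rnf2 took the next places, with group means of 33.2 to 80.9 RPKM for Ezh2 and 51.0 to 64.1 RPKM for Rnf2. Suz12 and Jarid2 were intermediate. The catalytic alternative Ezh1 and the 3 chromobox genes were scarce, with group means of at most 6.13 RPKM, and Cbx7 lay at the 8.12th percentile of the genes tested in wild type endothelium. The RPKM values allow comparison between genes because they are divided by exon length, from 1393 bases for Cbx8 to 6158 bases for Jarid2. No exon base of the 10 genes is shared with another gene of the table. In the mm9 coordinates of the table, 4 of the 10 lie on chromosome 11, where Cbx2 (118884343 to 118892584, plus strand) and Cbx8 (118899750 to 118902227, minus strand) are neighbours separated by 7165 bases. Suz12 lies on the same chromosome at 79806608 to 79847625, Bmi1 on chromosome 2 at 18598645 to 18608256, and Cbx7 on chromosome 15 at 79746237 to 79763076.

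**Figure D1:**
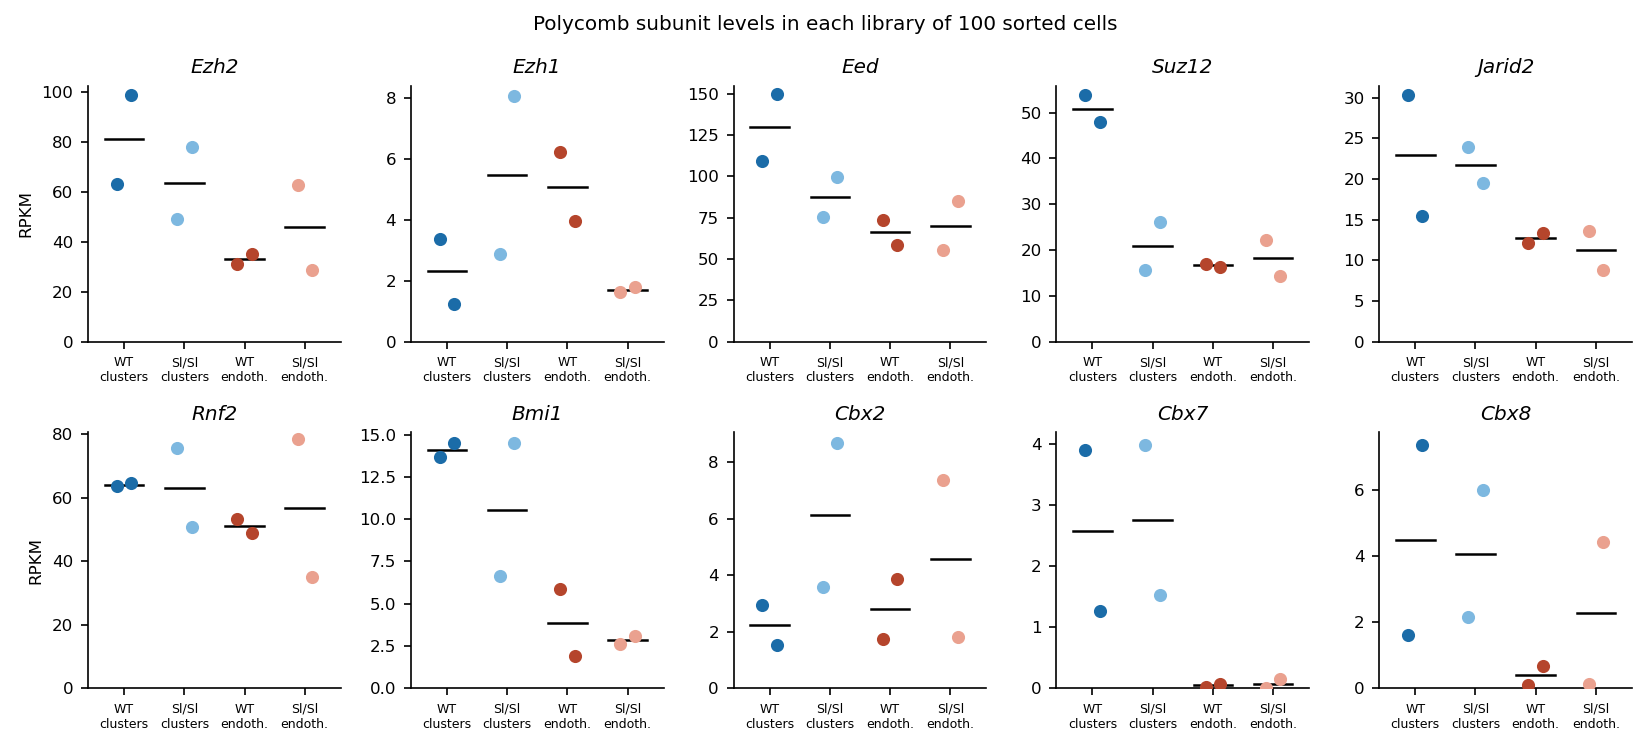
Level of each Polycomb gene in RPKM (linear axis from 0) in the 8 libraries (WT, wild type), with 2 points per group and a line at their mean. Cbx7 is at or near 0 in all 4 endothelial libraries, and Bmi1 and Jarid2 are lower in each endothelial library than in any cluster library.

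The first comparison asked how the sorted endothelium differs from the sorted clusters. Over both genotypes, 3 of the 10 genes were lower in endothelium (Suz12, Bmi1 and Cbx7) and none was higher, at an adjusted p under 0.1 (quasi-likelihood test of edgeR, p-values adjusted over all tested genes by the Benjamini-Hochberg method). Of all tested genes, 16.6% passed in either direction and 8.12% were lower. The log2 fold change was below 0 for 9 of 10 genes, as it was for 52.7% of all tested genes, and its median was -0.76 against -0.067 over all tested genes. At an unadjusted p under 0.05 there were 5 of 10 genes, the same 3 with Ezh2 and Jarid2, against 26.6% of all genes. For 3 genes (Jarid2, Bmi1 and Cbx7) every endothelial library lay below every cluster library, which held for 11.8% of all tested genes. In such sorted libraries, fewer cells of a type and less RNA per cell cannot be told apart.

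Among the PRC2 genes, Ezh2 had 63.0 and 98.7 RPKM in wild type clusters, 49.0 and 77.9 in Sl/Sl clusters, 31.1 and 35.2 in wild type endothelium, with 62.8 and 28.8 for Sl/Sl endothelium. Apart from Sl/Sl endothelium replicate 1, all endothelial libraries were below all cluster libraries. The log2 difference of Ezh2 was -0.75 (SE 0.30), which did not pass (adjusted p = 0.151 in edgeR), although it did in DESeq2 (adjusted p = 0.0753). The core subunit Eed had 110 and 150 RPKM in wild type clusters, 75.3 and 99.4 in Sl/Sl clusters, 73.9 and 58.4 in wild type endothelium, with 55.4 and 84.9 for Sl/Sl endothelium. Its cluster and endothelial ranges met only through Sl/Sl endothelium replicate 2, and its log2 difference of -0.52 (SE 0.23) did not pass (adjusted p = 0.190 in edgeR). The scaffold Suz12 had 53.8 and 47.9 RPKM in wild type clusters, 15.6 and 26.1 in Sl/Sl clusters, 17.0 and 16.4 in wild type endothelium, with 22.1 and 14.5 for Sl/Sl endothelium. The 2 wild type cluster libraries stood clear of the other 6, which overlapped. Suz12 was 1.70-fold lower in endothelium over both genotypes (log2 fold change -0.76, SE 0.25, adjusted p = 0.0854 in edgeR).

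Jarid2, the recruiting partner, had 30.4 and 15.5 RPKM in wild type clusters, 23.9 and 19.5 in Sl/Sl clusters, 12.2 and 13.4 in wild type endothelium, with 13.7 and 8.87 for Sl/Sl endothelium. The cell types did not overlap, with the highest endothelial library at 13.7 RPKM and the lowest cluster library at 15.5 RPKM. Its log2 difference of -0.76 (SE 0.28) missed the threshold (adjusted p = 0.121 in edgeR and 0.0539 in DESeq2). Ezh1, in contrast, had no one direction. It had 3.39 and 1.23 RPKM in wild type clusters, 2.89 and 8.06 in Sl/Sl clusters, 6.24 and 3.95 in wild type endothelium, with 1.62 and 1.79 for Sl/Sl endothelium, for a log2 difference of -0.13 (SE 0.63, adjusted p = 0.938 in edgeR). Its highest library, Sl/Sl clusters replicate 2, was the one with the most mesenchymal reads. The next by mesenchymal sum was wild type endothelium replicate 1 (1136 CPM), with 6.24 RPKM of Ezh1. Sl/Sl endothelium replicate 2 (956 CPM) had 1.79 RPKM of Ezh1, and wild type clusters replicate 2 (914 CPM) had the least, 1.23 RPKM. The part of these genes in the Ezh1 values was not tested. Of the summed RPKM of both catalytic genes, Ezh1 made up 1.23 to 9.38% in clusters and 2.52 to 16.7% in endothelium, so that Ezh2 held the larger share in all 8 libraries.

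Among the 10 genes, the largest log2 difference between the cell types lay within PRC1. Cbx7, a chromobox protein that anchors PRC1 to the mark of PRC2, had 121 and 46 counts in wild type clusters, 138 and 59 in Sl/Sl clusters, 1 and 2 in wild type endothelium, with 0 and 4 for Sl/Sl endothelium. Every cluster library thus held at least 46 counts and no endothelial library more than 4. Summed over both genotypes and scaled by library totals, the level in clusters was 47.1 times that in endothelium (95% counting interval 22.6 to 118). This interval treats reads as independent draws and leaves out amplification and the spread between libraries. The fitted log2 fold change was -5.27 (SE 1.62, adjusted p = 0.0718 in edgeR). Bmi1, the ring finger partner of Rnf2, had 13.7 and 14.5 RPKM in wild type clusters, 6.64 and 14.5 in Sl/Sl clusters, 5.85 and 1.91 in wild type endothelium, with 2.59 and 3.11 for Sl/Sl endothelium. All endothelial libraries were below all cluster libraries, and Bmi1 was 3.35-fold lower in endothelium (log2 fold change -1.74, SE 0.51, adjusted p = 0.0613 in edgeR).

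The catalytic PRC1 subunit Rnf2 varied least of the 10, with 2.24 times as much in its highest as in its lowest library. It had 63.7 and 64.5 RPKM in wild type clusters, 75.5 and 50.8 in Sl/Sl clusters, 53.2 and 48.8 in wild type endothelium, with 78.3 and 34.9 for Sl/Sl endothelium. Its log2 difference between cell types was -0.12 (SE 0.27, adjusted p = 0.835 in edgeR), and the 2 libraries of Sl/Sl endothelium spanned the whole range of the other 6. The ratio of Rnf2 to Bmi1 in RPKM was 3.50 to 11.4 in clusters and 9.10 to 30.2 in endothelium. Cbx2 had 2.93 and 1.53 RPKM in wild type clusters, 3.57 and 8.68 in Sl/Sl clusters, 1.73 and 3.85 in wild type endothelium, with 7.35 and 1.80 for Sl/Sl endothelium, a full overlap (log2 difference 0.09, SE 0.71, adjusted p = 0.970 in edgeR). Cbx8, neighbour of Cbx2, had 1.60 and 7.37 RPKM in wild type clusters and 2.16 and 5.99 in Sl/Sl clusters. Its endothelial values were 0.112 and 0.684 RPKM for wild type, with 0.121 and 4.42 for Sl/Sl. The last of these values, from Sl/Sl endothelium replicate 2, lay within the cluster range, and the log2 difference of -2.02 (SE 1.46) did not pass (adjusted p = 0.425 in edgeR).

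**Figure D2:**
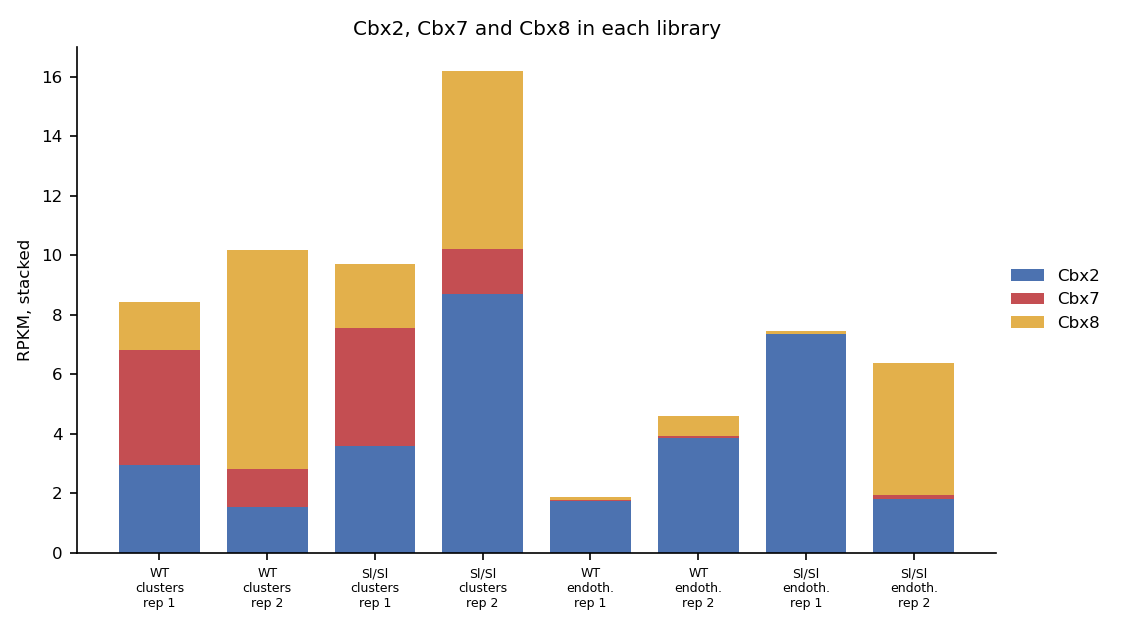
RPKM of the chromobox genes Cbx2, Cbx7 and Cbx8, stacked from 0 for each of the 8 libraries (WT, wild type). The Cbx7 segment takes 9.38 to 46.2% of the stack in clusters and 0 to 2.43% in endothelium, while the leading gene changes from library to library.

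Summed over the 3 chromobox genes, the level was 8.43 to 16.2 RPKM in the 4 cluster libraries and 1.87 to 7.47 RPKM in the 4 endothelial libraries, without overlap. Cbx7 supplied 46.2 and 12.4% of it in wild type clusters and 41.01 and 9.38% in Sl/Sl clusters, but only 1.44 and 1.43% of it for wild type endothelium, with 0 and 2.43% for Sl/Sl. The shares of Cbx2 and Cbx8 spread widely within groups. Cbx8, for example, made up 19.02 and 72.5% in the 2 wild type cluster libraries.

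The exact permutation test over the 4 endothelial and 4 cluster libraries (two-sided, 70 arrangements, 10 genes tested, unadjusted) gave p = 0.0286 for Jarid2, Bmi1 and Cbx7, the smallest value this design allows. The same exact permutation test gave p = 0.0857 for Ezh2 and for Eed, 0.114 for Cbx8, 0.2 for Suz12, 0.6 for Rnf2, 0.971 for Cbx2 and 1 for Ezh1. The 3 calls of the edgeR fit were near its threshold and rested on the full set of libraries. Suz12 passed only without Sl/Sl clusters replicate 1 (adjusted p = 0.0645) or Sl/Sl endothelium replicate 1 (0.0731), and without each of the other 6 libraries its adjusted p was 0.141 to 0.281. Bmi1 passed without Sl/Sl clusters replicate 1, wild type endothelium replicate 1 or Sl/Sl endothelium replicate 2, and its adjusted p was 0.101 to 0.216 without each of the other 5. Cbx7 passed only without Sl/Sl endothelium replicate 2 (adjusted p = 0.0629), and had 0.104 to 0.214 otherwise. Direction was kept in all of these fits, with log2 fold changes of -0.95 to -0.58 for Suz12, -2.23 to -1.43 for Bmi1 and -7.56 to -4.79 for Cbx7. Without Sl/Sl clusters replicate 2, the library rich in mesenchymal genes, none of the 3 passed, at log2 fold changes of -0.58, -1.43 and -5.55.

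The promoters of the 3 genes called lower in endothelium are shown because these genes moved in one direction in the cell type comparison. Each is the run of 250 bases before the start site, 5′ to 3′ on the gene's strand, from RefSeq on GRCm38.p6, a later build than the mm9 of the count table. The windows are chr11:79992856-79993105 (plus strand) for Suz12, chr2:18676768-18677017 (plus strand) for Bmi1 and chr15:79932647-79932896 (minus strand) for Cbx7. Capitals mark a match to an E2F motif (TTTCCCGC, TTTCGCGC, TTTGCCGC or TTTGGCGC) or to the E-box CACGTG on either strand.
Suz12: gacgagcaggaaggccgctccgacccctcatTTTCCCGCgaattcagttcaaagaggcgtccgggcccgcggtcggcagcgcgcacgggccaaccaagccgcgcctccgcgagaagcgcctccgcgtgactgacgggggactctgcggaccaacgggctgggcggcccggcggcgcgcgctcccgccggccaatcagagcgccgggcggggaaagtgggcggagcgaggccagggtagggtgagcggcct
Bmi1: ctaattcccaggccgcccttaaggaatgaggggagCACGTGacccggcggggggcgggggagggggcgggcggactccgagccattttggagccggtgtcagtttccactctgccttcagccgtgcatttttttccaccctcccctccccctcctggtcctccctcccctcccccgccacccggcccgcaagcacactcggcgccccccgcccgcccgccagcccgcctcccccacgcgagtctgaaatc
Cbx7: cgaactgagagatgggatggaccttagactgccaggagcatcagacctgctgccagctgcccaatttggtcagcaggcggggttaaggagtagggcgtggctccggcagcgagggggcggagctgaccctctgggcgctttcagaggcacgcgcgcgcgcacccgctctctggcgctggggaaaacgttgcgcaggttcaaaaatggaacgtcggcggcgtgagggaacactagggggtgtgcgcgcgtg
An E2F motif, named for factors that drive genes of DNA replication, began 219 bases before the start site of Suz12 and was in no other member's promoter. It occurs in 1.86% of the 32851 promoters of the table. The E-box, bound by Myc and related proteins, was found 215 bases before the start site of Bmi1 and also in the promoter of Cbx8, and is held by 6.02% of all promoters. The Runx letters TGTGGT, named for the Runx factors of blood formation, were in the promoters of Ezh2 and Jarid2 and in 14.0% of all promoters. CpG dinucleotides numbered 37 in the Suz12 window, 21 in Bmi1 and 23 in Cbx7, and 12 to 37 over the 9 members with an entry, against a median of 6 over all promoters. Cbx2 had no entry. A match describes the letters only.

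Within wild type embryos, 1 of the 10 genes was called lower in endothelium, Suz12 (2.79-fold, log2 fold change -1.48, SE 0.36, adjusted p = 0.0493 in edgeR). Of all tested genes, 8.24% passed in this comparison in either direction and 3.68% were lower. In wild type 8 genes lay lower in both endothelial libraries than in both cluster libraries and Ezh1 lay higher, which held for 29% and 22% of all tested genes. The median log2 fold change of the 10 genes was -1.01, against -0.0032 over all tested genes. Ezh2 had a log2 fold change of -1.17 (SE 0.43, adjusted p = 0.178), Eed -0.85 (SE 0.33, adjusted p = 0.192), Bmi1 -1.75 (SE 0.72, adjusted p = 0.223) and Cbx7 -5.55 (SE 2.32, adjusted p = 0.227), none past the edgeR threshold. DESeq2 called these 4 and Suz12, among 2613 genes in all. The Suz12 call was lost when any of the 4 wild type libraries was left out, with adjusted p-values of 0.120 to 0.172, and remained without any of the 4 Sl/Sl libraries.

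Within Sl/Sl embryos, 0 of the 10 genes were called by edgeR, where 2.83% of all tested genes were. At an unadjusted p under 0.05 there was 1 gene, Bmi1, against 14.4% of all genes. DESeq2 called 1 of the 10, Cbx7 (adjusted p = 0.0569), among 1631 genes in all. The fold changes of all 10 were below 0, as were 52.6% of those of all tested genes, with a median of -0.51 against -0.066 over all tested genes. In 4 genes, Ezh1, Jarid2, Bmi1 and Cbx7, both endothelial libraries lay below both cluster libraries, as in 28.4% of all tested genes. Bmi1 and Jarid2 had close to the same log2 difference in the 2 genotypes, -1.75 (SE 0.72) and -1.74 (SE 0.73) for Bmi1 and -0.70 (SE 0.39) and -0.82 (SE 0.39) for Jarid2. For Suz12 the difference was -1.48 (SE 0.36) in wild type and -0.05 (SE 0.35) in Sl/Sl.

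**Figure D3:**
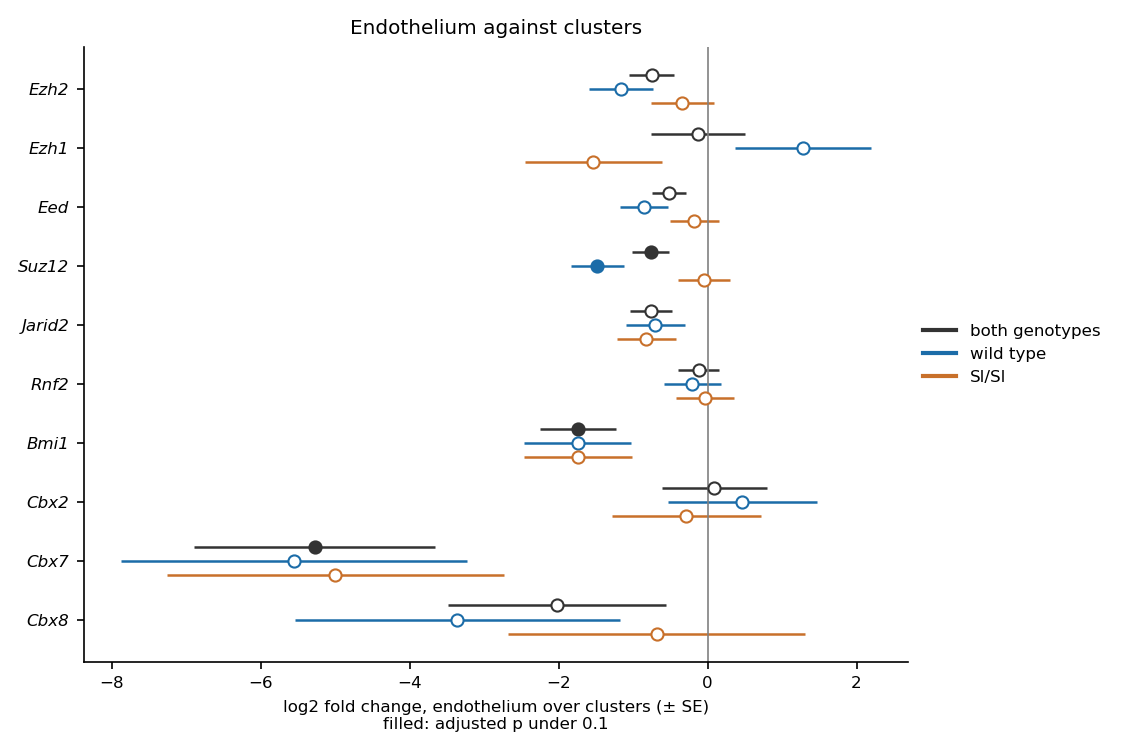
Log2 fold change of endothelium over clusters (horizontal axis, bars are ± SE of the edgeR fit) for each gene in both genotypes together, in wild type and in Sl/Sl. Filled points passed an adjusted p of 0.1, namely Suz12, Bmi1 and Cbx7 over both genotypes and Suz12 in wild type, and Ezh1 lies on opposite sides of 0 in the 2 genotypes.

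The next comparison asked whether loss of Kitl changed the Polycomb genes in clusters. None of the 10 genes passed in Sl/Sl against wild type clusters, and neither did any other of the 13908 genes (0%) in edgeR. The study itself, with DESeq2 at an adjusted p under 0.1, reported genes changed in both directions in clusters, and fewer in endothelium. It also measured Ezh2 and Bmi1 by quantitative PCR in sorted cells of both genotypes, and those values were not compared here. At an unadjusted p under 0.05 edgeR gave 587 genes (4.22%), 1 of the 10 among them, and DESeq2 called 175 genes, 1 of the 10 among them. That gene was Suz12. Its 2 Sl/Sl cluster libraries, at 15.6 and 26.1 RPKM, were below the wild type ones, at 53.8 and 47.9 RPKM, and its log2 difference was -1.28 (SE 0.35, adjusted p = 0.697 in edgeR, adjusted p = 0.0817 in DESeq2). The log2 difference of Suz12 stayed between -1.65 and -0.98 when each library was left out in turn. Group means were 50.9 ± 4.17 RPKM in wild type and 20.8 ± 7.42 RPKM in Sl/Sl clusters, the latter next to 16.7 ± 0.448 and 18.3 ± 5.42 RPKM in wild type and Sl/Sl endothelium. The share of all tested genes that were lower at an unadjusted p under 0.05 was 0.812%.

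Eed too had both Sl/Sl cluster libraries below the wild type pair, which held for 16.3% of all tested genes, with a log2 difference of -0.57 (SE 0.33, adjusted p = 1 in edgeR). Cbx2 lay higher in both, at 3.57 and 8.68 against 2.93 and 1.53 RPKM, as did 16.5% of all tested genes (log2 difference 1.47, SE 1.02, adjusted p = 1). The upper Cbx2 value came from Sl/Sl clusters replicate 2, and without that library the log2 difference was 0.74. Ezh1 had a log2 difference of 1.26 (SE 0.91, adjusted p = 1), or 0.39 without that same library. The log2 differences of Ezh2 (-0.35, SE 0.42), Jarid2 (-0.05, SE 0.39), Bmi1 (-0.42, SE 0.70), Rnf2 (-0.0023, SE 0.39), Cbx7 (0.14, SE 1.88) and Cbx8 (-0.17, SE 1.98) were within 1 SE of 0. The SEs of Cbx7 and Cbx8 leave room for changes of several fold in either direction. For Cbx7 the 2 libraries of a group lay far apart, at 3.89 and 1.27 RPKM in wild type and 3.98 and 1.52 RPKM in Sl/Sl clusters. The marker levels of these 4 libraries were uneven. Endothelial genes summed to 944 and 214 CPM in wild type clusters, with 2167 and 498 CPM for Sl/Sl, and 7 of the 8 had a log2 difference above 0. Sl/Sl clusters replicate 1, with the most endothelial reads of the 4, was also the one with the least Suz12 (15.6 RPKM). Wild type clusters replicate 1, with 944 CPM, however had the most Suz12 of the 4 (53.8 RPKM), ahead of replicate 2 at 214 CPM (47.9 RPKM). Sl/Sl clusters replicate 2, with 498 CPM, had 26.1 RPKM. Skeletal muscle genes summed to 35.4 and 86.4 CPM in wild type and to 372 and 648 CPM in Sl/Sl clusters. The mesenchymal sums, 683 and 914 CPM in wild type, were 30.7 and 4010 CPM in Sl/Sl clusters, so that 1 Sl/Sl library lay below both wild type libraries and the other above them. The part of these markers in the values was not tested.

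In endothelium, 0 of the 10 genes and 0 of all tested genes (0%) passed in the edgeR comparison of the genotypes. At an unadjusted p under 0.05 edgeR gave 580 genes (4.17%), none of the 10 among them, and DESeq2 called 178, again none of the 10. Ezh1 alone did not overlap, at 6.24 and 3.95 RPKM in wild type and 1.62 and 1.79 RPKM in Sl/Sl endothelium, as 15.3% of all tested genes did in that direction (log2 difference -1.55, SE 0.92, adjusted p = 1 in edgeR). The fold changes of the other 9 ranged from -0.41 for Bmi1 to 2.51 (SE 2.12) for Cbx8, which rests on the 55 counts of Sl/Sl endothelium replicate 2 against 2, 2 and 10 in the other 3 endothelial libraries. Without it the log2 difference of Cbx8 was -1.69. Suz12, the gene with the smallest p in clusters, differed by 0.15 (SE 0.35) in endothelium. Kitl itself, the deleted gene, did not pass this edgeR test (log2 difference -7.91, SE 1.96, adjusted p = 1) despite 1250 and 923 counts against 6 and 2, so the lack of calls does not show that the 10 genes were alike in the genotypes.

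**Figure D4:**
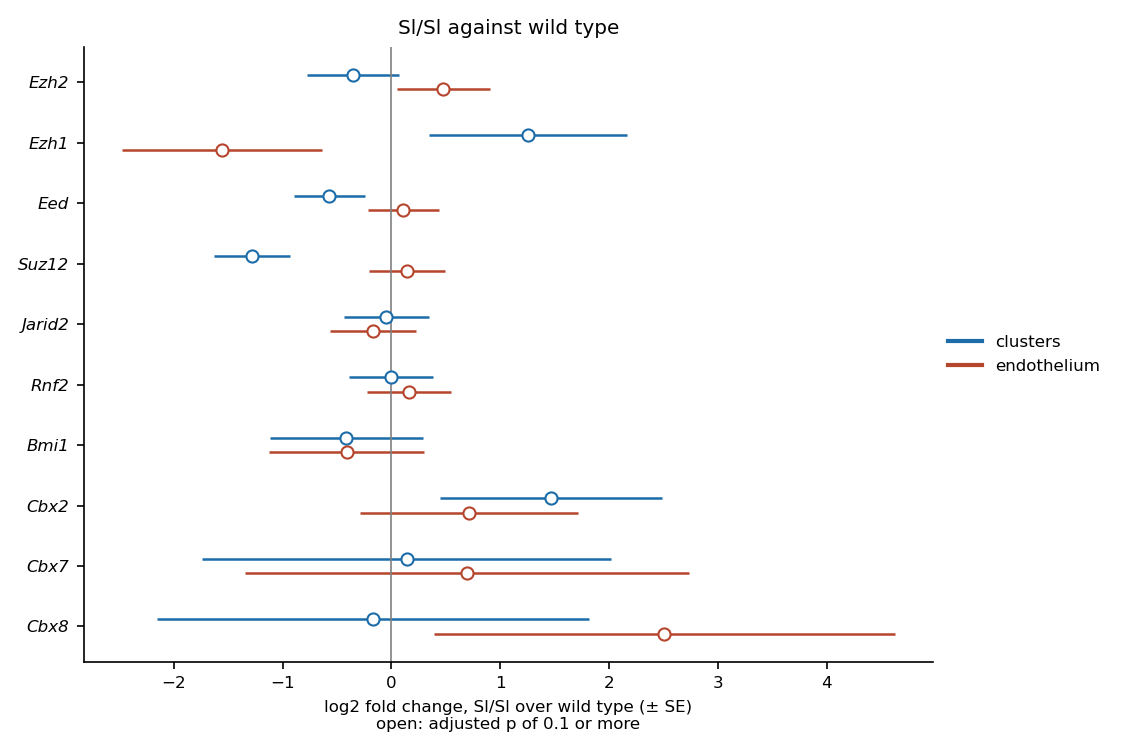
Log2 fold change of Sl/Sl over wild type (horizontal axis, bars are ± SE of the edgeR fit) for each gene in clusters and in endothelium. All points are open, since no adjusted p was under 0.1, and in clusters Suz12 is the gene farthest from 0 relative to its SE.

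Whether the cell type difference itself depended on genotype was tested as an interaction. None of the 10 genes and none of the 13908 genes (0%) passed in edgeR, with 736 genes (5.29%) at an unadjusted p under 0.05 and 175 called by DESeq2, none of the 10 among the latter. Suz12 was the 1 gene of the 10 at an unadjusted p under 0.05, with an interaction of 1.43 on the log2 scale (SE 0.49, adjusted p = 0.902 in edgeR). For Ezh1 the interaction was -2.81 (SE 1.29, adjusted p = 0.902 in edgeR). For Bmi1 it was 0.0043 (SE 1.06) and for Jarid2 -0.12 (SE 0.55), with SEs that leave its sign open.

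The remaining Polycomb genes gave a setting for these 10. Of 7 further PRC2 subunits, all tested, 3 were called lower in endothelium over both genotypes by edgeR and 0 higher, with a median log2 fold change of -0.66. Rbbp7, a histone-binding subunit, had 302 to 419 RPKM in clusters and 183 to 243 in endothelium, without overlap (log2 fold change -0.67, SE 0.16, adjusted p = 0.0312 in edgeR). The accessory subunits Mtf2 (-0.66, SE 0.18, adjusted p = 0.0446), a Polycomb-like protein that binds CpG-rich DNA, and Aebp2 (-0.93, SE 0.29, adjusted p = 0.0714), a zinc finger partner of Jarid2 in the same form of PRC2, were lower as well. Mtf2 went from 47.4 to 62.8 RPKM in clusters to 28.2 to 40.9 RPKM in endothelium, and Aebp2 from 10.9 to 21.4 to 6.94 to 10.5. Rbbp4, the close relative of Rbbp7, had a log2 difference of 0.06 (SE 0.21, adjusted p = 0.896).

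Of 24 further PRC1 genes, all tested, 1 was lower, 1 was higher and 22 did not pass in edgeR, with a median of 0.096, while DESeq2 called 4. Pcgf6, a relative of Bmi1 in a noncanonical form of PRC1, was lower in endothelium (-1.34, SE 0.45, adjusted p = 0.0964). Yaf2, which in noncanonical PRC1 takes the place of the Polycomb chromobox proteins, was higher (0.70, SE 0.22, adjusted p = 0.0831), at 51.7 to 78.3 RPKM in endothelium and 39.1 to 51.1 in clusters. The Bmi1 relatives Pcgf1, Pcgf2, Pcgf3 and Pcgf5 had log2 differences of 0.07, 0.81, 0.23 and -0.58, none of which passed, and Pcgf2, the nearest relative of Bmi1, ranged from 1.35 to 14 RPKM in endothelium. Of 10 enzymes that oppose or remove the Polycomb marks, such as the demethylases Kdm6a (-0.30, SE 0.38) and Kdm6b (0.65, SE 0.45), 0 passed in edgeR or in DESeq2 in any of the 6 comparisons, with 1 (Kmt2a, 0.70, SE 0.28) at an unadjusted p under 0.05 over both genotypes. In wild type alone, edgeR called 0 of these 41 further genes, with 6 at an unadjusted p under 0.05 and 3 called by DESeq2, and in Sl/Sl alone 0, with 3 and 2. Between genotypes and in the interaction edgeR and DESeq2 called 0, with 0 at an unadjusted p under 0.05 in clusters, 2 in endothelium and 1 in the interaction.

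**Figure D5:**
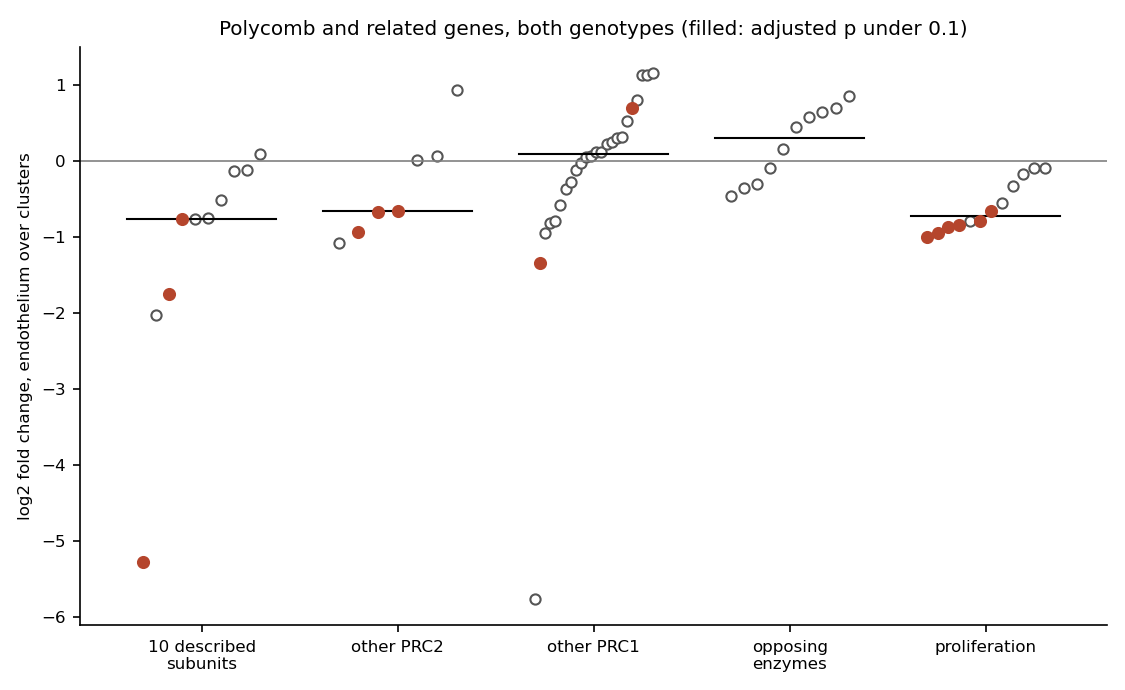
Log2 fold change of endothelium over clusters in both genotypes for each tested gene of 5 lists, with a line at the median of each list and filled points for an adjusted p under 0.1. The medians are -0.76 for the 10 described subunits, -0.66 for other PRC2, 0.096 for other PRC1, 0.30 for opposing enzymes and -0.72 for proliferation genes.

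Genes that Polycomb is known to silence in embryos were mostly unread in both cell types. Of 24 such targets, 13 had at most 3 counts in each library, 10 of these had 0 in all 8, and 10 of the 24 could be tested. Of all 24015 genes of the count table, 13908 could be tested. The share of all genes with so few counts was not computed, so these numbers do not show silencing. Cdkn2a, the locus best known as a target of Bmi1, had 0 counts in every library. Cdkn2b next to it had 41 counts in Sl/Sl clusters replicate 2, 86 in Sl/Sl endothelium replicate 1, 1 in wild type endothelium replicate 1 and 0 in the other 5. Isl1, a transcription factor gene of heart and motor neuron development, was the 1 target called by edgeR over both genotypes, where DESeq2 called 2. It was higher in endothelium (log2 fold change 1.47, SE 0.42, adjusted p = 0.0568 in edgeR), at 19.03 to 27.7 RPKM against 2.61 to 24.8 in clusters. The upper cluster value was again that of Sl/Sl clusters replicate 2. In wild type, Isl1 went from 2.61 and 6.90 RPKM in the cluster pair to 19.03 and 22.5 in the endothelial pair (adjusted p = 0.0789 in edgeR). It was again the 1 target that edgeR called there, against 4 called by DESeq2, and in the interaction edgeR called 0, with 2 at an unadjusted p under 0.05 and 1 called by DESeq2.

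Genes of cell division were compared between the cell types as well. Over both genotypes, all 12 proliferation genes had log2 fold changes below 0, as did 52.7% of all tested genes. Of the 12, 6 were called lower in endothelium and 0 higher, where 8.12% of all tested genes were called lower. Examples were Top2a, the topoisomerase that untangles replicated chromosomes (-0.996, SE 0.24, adjusted p = 0.031 in edgeR), and Mcm5, part of the replicative helicase (-0.84, SE 0.19, adjusted p = 0.0239). Their summed level was 3406 to 3932 CPM in clusters and 1894 to 3218 CPM in endothelium, without overlap. Within Sl/Sl alone edgeR and DESeq2 called 0 of the 12, with 0 at an unadjusted p under 0.05, and 3 of the 12 were above 0. Sl/Sl endothelium replicate 1 had the highest sum of the endothelial libraries and also their highest Ezh2 (62.8 RPKM), Suz12 (22.1), Jarid2 (13.7), Rnf2 (78.3) and Cbx2 (7.35). It had their lowest Eed (55.4 RPKM), Ezh1 (1.62) and Cbx7 (0 counts), and lay between the others for Bmi1 (2.59 RPKM) and Cbx8 (0.121). The part of cell division, and of the macrophage genes found mainly in clusters (6 of 8 called lower in endothelium), in the Polycomb differences was not tested.

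The genes whose log2 CPM, among tested genes outside the lists used here, followed Ezh2 most closely over the 8 libraries were Man2b1, a lysosomal mannosidase (Pearson r = 0.975), Gm7102 (0.971) and Gm2373 (0.968). Gm2373 was read at under 3 CPM in each library. For Ezh1 they were Figf, which encodes the growth factor VEGF-D (r = 0.974), Heatr5b (0.962) and Metrnl (0.958). Figf and Metrnl were both highest in Sl/Sl clusters replicate 2, at 15.2 and 22.2 CPM, the library with the most Ezh1. These values describe 8 libraries that share sorts and depth, and were picked as the highest of all genes tested. Between the members, r was 0.745 for Ezh2 and Suz12, 0.690 for Eed and Suz12 and -0.325 for Ezh1 and Ezh2.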

How the data were processed

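RNA-seq libraries of 100 sorted cells were made with SMARTSEQ2, which amplifies cDNA without molecular identifiers or strand marks. Per the labels and the study's methods, the authors aligned reads to mm9 with STAR 2.4.2a and counted reads per gene with featureCounts (Subread 1.4.5). The deposited values are raw counts of 24015 genes with exon positions. The annotation was not given in the sources used here. Of the gene names, 27 had been turned into dates.

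The 13908 genes kept by filterByExpr were fitted with edgeR 4.0.16 (R 4.3.3): TMM scaling, 4 group means over all 8 libraries, quasi-likelihood tests, and Benjamini-Hochberg adjustment over all genes at a threshold of 0.1. RPKM was computed from the counts, library totals and exon lengths. The study used DESeq2, here run as an alternative (1.42.0), with other scaling, filters, a replicate block and each library left out. The biological coefficient of variation was 0.817. On simulated counts for endothelium against clusters, 163 of 200 genes changed by 4 on the log2 scale were called. The simulation covered all genes with reads, filtered anew, and gave each the same spread. The changed genes were drawn from those above a minimum mean count. It does not describe smaller changes or the comparisons between genotypes. All 10 members are described. Further Polycomb genes are named if called, with Cdkn2a, Cdkn2b, relatives of the members, and the 3 genes most like Ezh2 and Ezh1. The members and lists were chosen with earlier results of these data known. A further gene is not reported here.

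Embryos were pooled by genotype, and the study names 2 sorting experiments without tying libraries to them, so p-values measure the spread between these libraries. Over 6 pairs of groups, same-numbered libraries had correlated deviations of -0.111 to 0.157, and were not treated as pairs.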

Additional observations from a re-analysis of the deposited data

Results flagged for a closer look

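The fitted cell type difference of Ezh1 had opposite signs in the 2 genotypes. Neither difference passed in edgeR (adjusted p = 0.473 in wild type and 0.478 in Sl/Sl). Both wild type endothelial libraries (6.24 and 3.95 RPKM) were above both wild type cluster libraries (3.39 and 1.23), as in 22% of all tested genes. Both Sl/Sl endothelial libraries (1.62 and 1.79) were below both Sl/Sl cluster libraries (2.89 and 8.06), as in 28.4% of all tested genes. The log2 fold change of endothelium over clusters was 1.28 (SE 0.91) in wild type and -1.53 (SE 0.92) in Sl/Sl, a gap of 2.81 on the log2 scale. The test of that gap did not pass (adjusted p = 0.902 in edgeR), and leaving out 1 library at a time moved it between -3.66 and -1.94. Without Sl/Sl clusters replicate 2, the library with the most Ezh1, it was -1.94.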

How the results depend on the processing

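The precision was limited by 2 libraries per group, with a biological coefficient of variation of 0.817 over all genes, and Cbx7 and Cbx8 rest on few counts in endothelium. Scaling by RLE size factors in place of TMM kept each count of calls within 1.5 times and reversed no member. At an adjusted p threshold of 0.05, 0 of the 10 genes and 1488 genes in all passed between cell types over both genotypes, 657 genes in wild type and 222 in Sl/Sl. DESeq2 called 5 of the 10 and 3614 genes in all over both genotypes, 5 and 2613 in wild type, 1 and 1631 in Sl/Sl, 1 and 175 between genotypes in clusters, 178 genes in endothelium and 175 in the interaction. Without a filter on low counts, 5 of the 10 passed over both genotypes, 2 in wild type with 1990 genes in all, and 1266 genes passed in Sl/Sl, 253 between genotypes in clusters, 65 in endothelium and 179 in the interaction. With at least 10 counts in every library, 9 genes passed between genotypes in clusters. Fitted on only the 4 libraries of the groups compared, 211 genes passed between cell types in Sl/Sl and 2 between genotypes in endothelium. Small differences changed sign in some fits. Rnf2 between genotypes in clusters was 0.024 without the filter and 0.0071 with the stricter one, and the Bmi1 interaction was -0.0020 and -0.017. The cause of these changes was not tested.

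Whether same-numbered libraries shared a sort is not known. Of the 6 correlations of their deviations, 1 was over 0.1 (0.157, between wild type and Sl/Sl clusters), which does not settle it. With the replicate number as a block, 1 of the 10 genes (Bmi1) passed between cell types over both genotypes, with 8 genes in all between genotypes in clusters, where Cbx8 was 0.20.

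With each library left out in turn, 0 to 2 of the 10 genes passed over both genotypes and in wild type, and the genes in all numbered 1563 to 2087 over both genotypes, 592 to 1329 in wild type, 182 to 633 in Sl/Sl, 6 to 76 between genotypes in clusters, 0 to 1 in endothelium and 0 to 27 in the interaction. Some log2 values changed sign with a library left out. Between cell types over both genotypes, the range was Ezh1 -0.42 to 0.31, Cbx2 -0.60 to 0.46 and Rnf2 -0.48 to 0.098. Between cell types in wild type, the range was Cbx2 -0.26 to 0.96. Between cell types in Sl/Sl, the range was Rnf2 -0.74 to 0.39, Suz12 -0.39 to 0.33, Cbx2 -1.63 to 0.45, Cbx8 -4.88 to 0.26, Eed -0.56 to 0.087 and Ezh2 -1.01 to 0.087. Between genotypes in clusters, the range was Jarid2 -0.43 to 0.47, Ezh2 -0.68 to 0.049, Rnf2 -0.36 to 0.29, Cbx7 -0.76 to 1.11, Cbx8 -1.03 to 1.37 and Bmi1 -1.04 to 0.020. Between genotypes in endothelium, the range was Bmi1 -0.97 to 0.57, Eed -0.26 to 0.40, Ezh2 -0.17 to 0.91, Suz12 -0.17 to 0.40, Rnf2 -0.51 to 0.61, Cbx2 -0.60 to 1.45, Jarid2 -0.49 to 0.089, Cbx7 -3.85 to 1.71 and Cbx8 -1.69 to 4.34. For the interaction, the range was Cbx7 -4.02 to 1.57, Jarid2 -0.64 to 0.26, Bmi1 -0.57 to 0.99, Rnf2 -0.50 to 0.59 and Cbx8 -1.54 to 4.49.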
